A study of Mus musculus with 6 samples.

Results

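Translation initiation factor genes were examined in in vitro generated germinal centre B cells treated with a GSK3 inhibitor or with solvent. Members were the gene entries whose symbol begins with Eif and a factor number from 1 to 6, other than the Eif2ak kinases, the Eif4ebp proteins and the X and Y copies of Eif2s3. The pattern matched 50 entries, and the 48 whose mean FPKM over the 6 libraries reached 1 are described. They belong to 10096 entries above that limit among 23850 in all. FPKM are fragments scaled for transcript length and library total, so levels can be compared between genes. Nearest the limit, Eif2c3 lay just inside with a mean of 1.02 FPKM. Eif2c4 lay outside, with 0.422 FPKM in DMSO and 0.122 in CHIR99021, and Eif4e1b was listed at 0 in every library.

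All 6 libraries came from wild type mice of the C57BL/6J strain. Naive follicular B cells were grown for 4 days on feeder cells expressing CD40L, with IL-4 at 1 ng/ml. A treatment of 36 h followed with the CD40L feeders still present and 10 ng/ml of IL-21 in the medium. During it, 3 cultures received DMSO, the solvent, and 3 received CHIR99021, a small molecule that inhibits the kinases GSK3A and GSK3B. The labels give 3 uM for CHIR99021 and print the same figure beside DMSO. Cells were purified before RNA extraction, while mouse ages and the identity of the feeder line are not stated in the labels. The series compares the 2 groups as biological triplicates.

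Initiation factors bring the small ribosomal subunit, the initiator tRNA and the messenger RNA together. eIF2 carries the initiator tRNA and is recharged with GTP by eIF2B, eIF3 is the large scaffold on the small subunit, and eIF4F binds the cap of the messenger RNA and unwinds its leader. eIF5 and eIF5B act when the start codon is met and the large subunit joins. B cells that are activated or on the way to antibody secretion make much protein, and GSK3 is known as a kinase of the eIF2B catalytic subunit. The libraries hold RNA levels only, and neither protein amount nor phosphorylation was measured.

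The markers of B cells fixed for this comparison were present in every library, and their sum ran from 2579 to 3433 FPKM in DMSO and from 1281 to 1522 FPKM in CHIR99021, with 6 of 6 lower and 0 higher, with or without the replicate number as a block in the fit. Over all tested genes, 8.13% were called higher and 13.3% lower, or 18.4% and 24.4% with the block. All marker counts in this paragraph stand beside these shares. The 6 germinal centre markers were all detected, and 1 of them was lower and 0 higher, or 3 and 1 with the block. The 5 plasma cell markers summed to 489 to 766 FPKM in DMSO and 471 to 588 FPKM in CHIR99021, with 2 higher and 0 lower, or 3 higher and 1 lower with the block. None of the 6 T cell markers reached the limit on level, and of 5 myeloid markers 2 were tested, with 0 higher and 1 lower in both fits. The T cell genes Cd3e and Cd8b1 and the myeloid gene Cd14 were at 0 in every library. The other T cell markers were above 0 in at least 1 library, the highest being Cd3g at 1.15 FPKM in DMSO replicate 1. Of the myeloid markers, Itgam had 5.68, 4.43 and 5.90 FPKM in DMSO and 2.01, 1.20 and 1.03 FPKM in CHIR99021, and Lyz2 reached 2.22 FPKM. Fibroblast markers, which feeder cells left after the purification of the B cells could supply, summed to 81.2 to 336 FPKM in DMSO and 61.6 to 261 FPKM in CHIR99021. Col1a1, Col1a2, Col3a1 and Sparc fell from replicate 1 to replicate 3 in both groups. Col1a1 had 202, 69.2 and 36.2 FPKM in DMSO replicates 1, 2 and 3, and 165, 65.3 and 33.3 FPKM in CHIR99021 replicates 1, 2 and 3. Thy1, the fibroblast marker called lower without the block, was instead highest in replicate 3, at 20.6 FPKM in DMSO and 6.97 FPKM in CHIR99021. Lum, below the limit on level, was higher in every CHIR99021 library than in any DMSO library. Of the 9 fibroblast markers, 5 were tested, with 0 higher and 1 lower, or 0 and 3 with the block, and the part of feeder RNA, or of the lower B cell markers, in the results below was not tested. In RNA from a population of cells, a different share of cells and a different amount of RNA per cell cannot be told apart.

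With CHIR99021, 9 of the 48 initiation factor genes rose and 1 fell, and the changes were small. Those that rose were Eif2a, Eif2b1, Eif2s1, Eif2s2, Eif3b, Eif3g, Eif4b, Eif4e and Eif5a, by 1.19-fold to 1.36-fold in mean FPKM, and the gene that fell was Eif4e3. The test was limma on log2(FPKM + 1) over all 10096 genes, with a Benjamini-Hochberg adjusted p under 0.05 and n = 3 per group. The share called higher was 18.8% of members against 8.13% of all tested genes, and the share called lower was 2.08% against 13.3%. The median log2 change was 0.19 for the members and -0.04 for all tested genes, and 34 of 48 members (70.8%) had a positive change, against 45.2% of all tested genes. With the replicate number as a block, 26 of the 48 members were called, where 42.8% of all tested genes were. Of these members 24 were higher (18.4% of all tested genes were) and 2 lower (4.17%, against 24.4%). These include all 10 genes called without it.

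The groups did not overlap for 21 members that were higher in CHIR99021 (43.8%, against 17.0% of all tested genes) and 1 that was lower (2.08%, against 23.1%). Compared within each replicate number, 30 members were higher in CHIR99021 in 3 of 3 numbers (62.5%, against 29.3% of all tested genes) and 4 were lower in 3 of 3 (8.33%, against 37.3%). Summed over all members, the level was 7093, 6478 and 7343 FPKM in DMSO replicates 1, 2 and 3. The sum was 7741, 7826 and 8173 FPKM in CHIR99021 replicates 1, 2 and 3, so every treated library lay above every control. As a share of the summed FPKM of the library, this was 1.20% ± 0.0438 (SD, n = 3) in DMSO and 1.33% ± 0.0751 (n = 3) in CHIR99021. The most abundant genes weigh most in such a sum. Its mean went from 6972 to 7914 FPKM, that of Eif5a alone from 1204 to 1574 FPKM and that of Eif4a1 from 712 to 853 FPKM. The sum of the members numbered 1 had a lower mean in CHIR99021, 744 against 787 FPKM.

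The number of calls varied with the libraries included. Without DMSO replicate 1, CHIR99021 replicate 1, CHIR99021 replicate 2 or CHIR99021 replicate 3, the number of members called higher was 4, 4, 3 and 2, and it was 6 without DMSO replicate 2 or DMSO replicate 3. Over all tested genes, the calls in either direction were 1517, 1665, 1441 and 1069, in the same order. They were 2038 without DMSO replicate 2 and 1334 without DMSO replicate 3, against 2164 with all 6 libraries. Each of these fits had fewer samples and no block. Eif2s2 and Eif4b passed without any 1 of the 6 libraries, while Eif2s1, Eif3b, Eif4e and Eif5a passed in none of these fits. Eif3g passed in 4 of the 6 fits (adjusted p up to 0.0918), Eif2a in 3 (up to 0.0704), Eif2b1 in 2 (up to 0.0947) and Eif4e3 in 2 (up to 0.0841). The counts by factor number that follow stand beside 8.13% called higher and 13.3% called lower over all tested genes, or 18.4% and 24.4% with the block.

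**Figure D1:**
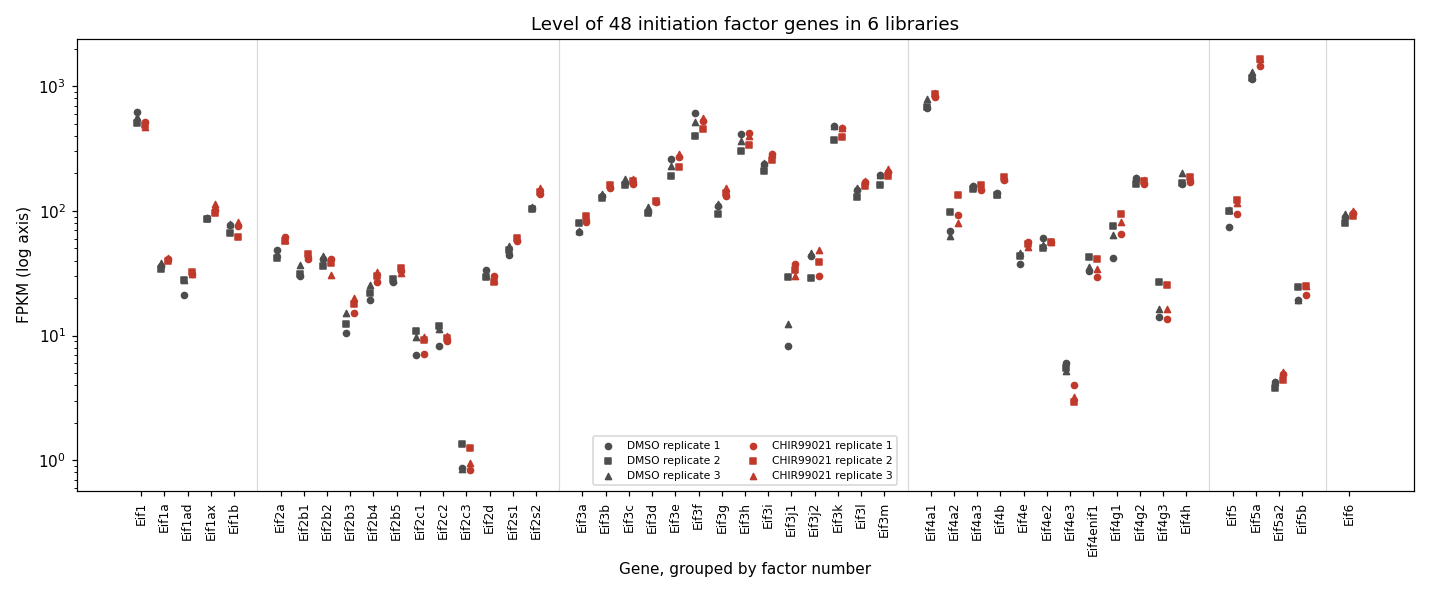
FPKM of the 48 initiation factor genes (log axis) in each library, with genes grouped by factor number, DMSO libraries in grey and CHIR99021 libraries in red, and the marker shape giving the replicate number. Group means ran from 1.02 FPKM for Eif2c3 to 1574 FPKM for Eif5a in CHIR99021.

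**Figure D2:**
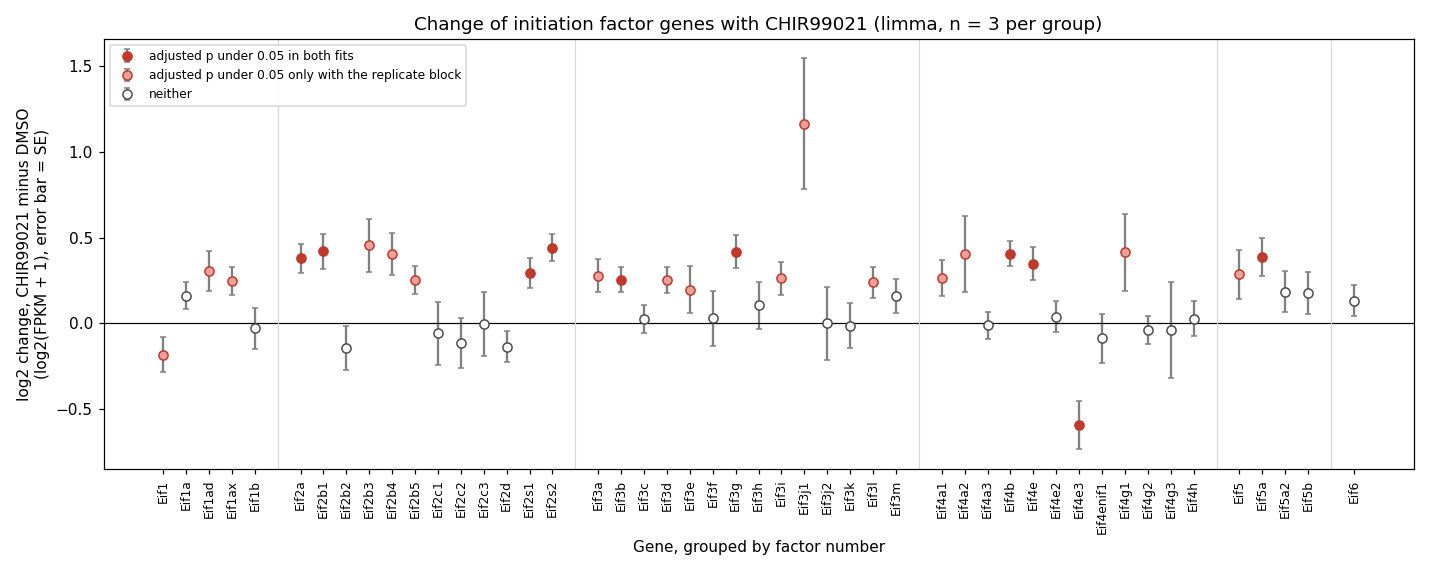
log2 change of each member, CHIR99021 minus DMSO on log2(FPKM + 1), with its SE from limma (n = 3 per group). Filled points passed the test with and without the replicate block (10 genes), pale points only with the block (16 genes) and open points in neither (22 genes). Most points lie above 0.

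Of the 5 members numbered 1, 0 passed the test at an adjusted p under 0.05, and with the replicate block 2 were higher and 1 lower. Without the block, 2 of the 5 had an unadjusted p under 0.05 by limma, where 3613 of all 10096 tested genes did. Eif1, which encodes the start codon gatekeeper eIF1 and was the most abundant of the group, had 623, 505 and 564 FPKM in DMSO and 521, 492 and 473 FPKM in CHIR99021. It was lower in 3 of 3 replicate numbers, but the groups overlapped (adjusted p = 0.250, or 0.0483 with the block). Eif1ax, an eIF1A gene, went the other way, with 87.6, 86.6 and 87.8 FPKM in DMSO and 102, 96.9 and 113 FPKM in CHIR99021. The treated libraries were all above the controls, and limma gave an adjusted p of 0.0720, or 0.0178 with the block. Eif1ad, named for its eIF1A-like domain, had 25.5 ± 3.80 and 31.5 ± 0.716 FPKM (adjusted p 0.106, and 0.0298 with the block). Eif1a and Eif1ax encode closely related proteins, and the labels do not say how reads matching both were assigned. Eif1a had 36.5 ± 1.99 and 40.8 ± 0.955 FPKM, and Eif1b, a paralog of Eif1, had 73.9 ± 6.66 and 72.6 ± 9.78 FPKM. Neither passed in either fit.

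Of the 12 members numbered 2, 4 rose and 0 fell, or 7 and 0 with the replicate block. Both eIF2 subunit genes among the members rose. Eif2s2 (chromosome 2, 154871410 to 154892906 on mm10), the beta subunit, had 105, 103 and 108 FPKM in DMSO and 136, 141 and 153 FPKM in CHIR99021. Its groups lay well apart, and the log2 change was 0.44 ± 0.08 (SE, adjusted p = 0.00739). Eif2s1 (chromosome 12, 78862072 to 78887010), the alpha subunit whose phosphorylation slows initiation under stress, had 44.7, 48.6 and 52.2 FPKM in DMSO and 57.0, 60.8 and 60.8 FPKM in CHIR99021. The lowest treated library was above the highest control, with a log2 change of 0.29 ± 0.09 (SE, adjusted p = 0.0472), which was 0.0578 to 0.157 when 1 library was left out.

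The 5 eIF2B genes encode the exchange factor that reloads eIF2. Eif2b1 (chromosome 5, 124570214 to 124579057), the alpha subunit, rose from 30.1, 31.2 and 37.0 FPKM in DMSO to 41.4, 45.3 and 45.4 FPKM in CHIR99021. Its log2 change was 0.42 ± 0.10 (SE, adjusted p = 0.0234), and all treated libraries were above all controls. Eif2b5, the catalytic epsilon subunit that GSK3 is known to phosphorylate, had 26.8, 28.6 and 28.0 FPKM in DMSO and 33.1, 35.1 and 31.6 FPKM in CHIR99021. The Eif2b5 groups did not overlap either, and the adjusted p was 0.0644, or 0.0187 with the block. Eif2b3 had 12.7 ± 2.39 and 17.8 ± 2.44 FPKM (adjusted p 0.0734, and 0.00291 with the block), and Eif2b4 had 22.3 ± 3.01 and 29.7 ± 2.90 FPKM (0.0519, or 0.00307 with the block). Eif2b2, the beta subunit, differed from the other 4 in sign, with 41.4, 36.2 and 43.3 FPKM in DMSO and 41.1, 38.1 and 30.4 FPKM in CHIR99021. It passed in neither fit (adjusted p = 0.471, or 0.341 with the block).

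Eif2a and Eif2d encode single-chain proteins, unrelated to the eIF2 subunits, that can deliver tRNA to the ribosome. Eif2a (chromosome 3, 58525821 to 58557501) rose from 49.0, 42.1 and 45.1 FPKM to 61.7, 57.4 and 58.4 FPKM. The log2 change was 0.38 ± 0.09 (SE, adjusted p = 0.0191), though its span overlaps that of Serp1 in the deposited tables. Eif2d had 31.2 ± 2.28 and 28.3 ± 1.68 FPKM, lower in 3 of 3 replicate numbers with overlapping groups (adjusted p = 0.333, or 0.110 with the block). The entries Eif2c1, Eif2c2 and Eif2c3 carry an older name for Argonaute proteins, which act in silencing by small RNAs and are no initiation factors. They were at low levels, from 1.02 to 10.5 FPKM in the group means, and 0 of 3 passed in either fit. An unadjusted p under 0.05 by limma was reached by 0 of 3, and by 3613 of all 10096 tested genes. Without the Eif2c entries the median log2 change of the remaining 45 members was 0.24.

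The 14 members numbered 3 gave 2 that rose and 0 that fell, or 8 and 0 with the replicate block, and 12 of 14 changes were positive. Eif3g (chromosome 9, 20894349 to 20898590), an RNA-binding subunit, rose from 109, 94.9 and 113 FPKM to 133, 140 and 152 FPKM. Its log2 change was 0.42 ± 0.10 (SE, adjusted p = 0.0205). Eif3b (chromosome 5, 140419305 to 140443358), a scaffold subunit that holds Eif3g and Eif3i, rose from 132, 128 and 138 FPKM to 153, 160 and 161 FPKM. The gap between its groups was small but larger than the spread within them, and the log2 change was 0.25 ± 0.07 (SE, adjusted p = 0.0446, or 0.0800 to 0.158 when 1 library was left out).

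The subunits b, d, g and i lie outside the octamer of PCI and MPN domain subunits that forms the core of eIF3. All 4 had treated libraries above every control (17.0% of all tested genes did), and all 4 were called higher with the block (against 18.4%). Eif3d, which can itself bind caps, had 97.6, 96.7 and 107 FPKM in DMSO and 118, 121 and 120 FPKM in CHIR99021 (adjusted p = 0.0501, or 0.0112 with the block). Eif3i had 231 ± 19.2 and 277 ± 18.3 FPKM (adjusted p 0.0906, and 0.00547 with the block). Of the 8 octamer genes, 0 passed without the block, and Eif3a, Eif3e and Eif3l passed with it. Without the block, 2 of the 8 had an unadjusted p under 0.05 by limma, beside 3613 of all 10096 tested genes. Eif3a, the largest scaffold subunit, had 67.5, 80.4 and 69.0 FPKM in DMSO and 81.5, 91.5 and 90.0 FPKM in CHIR99021 (adjusted p = 0.0779, or 0.0109 with the block). Eif3l had 146, 130 and 153 FPKM in DMSO and 172, 159 and 174 FPKM in CHIR99021, again without overlap (adjusted p = 0.0965, or 0.0104 with the block). Eif3e had 228 ± 35.2 and 261 ± 30.9 FPKM with overlapping groups (adjusted p 0.360, and 0.0471 with the block). Eif3m, at 183 ± 17.8 and 204 ± 13.6 FPKM, was higher in 3 of 3 replicate numbers and lay just outside the threshold with the block (adjusted p = 0.295, or 0.0503). This grouping of subunits was made after the values were seen, and the difference between the groupings was not tested.

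Little difference between the groups was measured for Eif3f, Eif3k, Eif3h and Eif3c. Eif3f, the most abundant eIF3 gene, had 605, 396 and 518 FPKM in DMSO and 526, 454 and 551 FPKM in CHIR99021, which are overlapping ranges (log2 change 0.03 ± 0.16 SE, adjusted p = 0.928). Eif3k had 443 ± 65.3 and 437 ± 40.0 FPKM, Eif3h 359 ± 54.7 and 385 ± 42.9 FPKM, and Eif3c 170 ± 9.88 and 172 ± 7.47 FPKM. None of these 4 passed in either fit. Within each group replicate 2 had the lowest value for Eif3f, Eif3h and Eif3k, and the spread was wider than the difference between the group means. Compared by replicate number, Eif3h was higher in 3 of 3, Eif3f in 2 of 3, and Eif3k and Eif3c in 1 of 3.

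The subunit j is split over a pair of entries, Eif3j1 and Eif3j2, whose spans coincide on chromosome 2 and overlap that of Spg11. Eif3j1 had 8.20, 29.5 and 12.4 FPKM in DMSO and 37.7, 33.9 and 30.2 FPKM in CHIR99021, while Eif3j2 had 43.6, 28.8 and 45.6 FPKM and 30.3, 38.8 and 48.5 FPKM. The log2 change of Eif3j1 was 1.16 ± 0.38 (SE), the highest of all members (adjusted p = 0.0661, or 0.0218 with the block). Eif3j2 passed in neither fit. In DMSO, replicate 2 was high for Eif3j1 where it was low for Eif3j2, so the division of fragments between the entries is uncertain. Summed, they had 51.8, 58.3 and 57.9 FPKM in DMSO and 68.1, 72.7 and 78.8 FPKM in CHIR99021. The summed level of the Eif3j1 and Eif3j2 entries had a log2 change of 0.38 ± 0.09 (SE) with an adjusted p of 0.0224, or 0.00247 with the block, a setting added after the data were seen.

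The 12 members numbered 4 gave 2 that rose and 1 that fell, or 5 and 1 with the replicate block. Eif4b (chromosome 15, 102073773 to 102097173), a cofactor that stimulates the helicase eIF4A, had 140, 135 and 137 FPKM in DMSO and 178, 186 and 184 FPKM in CHIR99021. Its replicates were the closest together among the genes that rose, and the log2 change was 0.41 ± 0.07 (SE, adjusted p = 0.00698). Eif4e (chromosome 3, 138526191 to 138557599), the cap-binding subunit, rose from 37.3, 43.8 and 46.1 FPKM to 55.9, 54.7 and 51.5 FPKM. Its log2 change was 0.35 ± 0.10 (SE, adjusted p = 0.0406, or 0.0518 to 0.108 when 1 library was left out).

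Eif4e3 (chromosome 6, 99625137 to 99666771), an eIF4E relative that binds caps without the usual aromatic clamp, fell from 6.07, 5.50 and 5.19 FPKM to 3.98, 2.93 and 3.21 FPKM. That is 0.604 of the DMSO mean (log2 change -0.60 ± 0.14 SE, adjusted p = 0.0218), and it was the member with the largest fall. Eif4e2, which encodes the cap-binding repressor 4EHP, had 55.0 ± 5.47 and 56.4 ± 0.205 FPKM and did not pass (adjusted p = 0.806). Eif4enif1, which encodes the eIF4E transporter, had 37.1 ± 5.10 and 34.9 ± 5.70 FPKM (adjusted p = 0.713).

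The scaffold gene Eif4g1 varied with the replicate number, with 42.2, 76.2 and 64.6 FPKM in DMSO and 64.7, 94.3 and 81.4 FPKM in CHIR99021. It was higher in 3 of 3 replicate numbers, but the groups overlapped (adjusted p = 0.227, or 0.00541 with the block). Eif4g2, which encodes the related protein DAP5 that lacks the cap-binding partner's site, had 178 ± 10.5 and 173 ± 6.84 FPKM. Eif4g3 had 19.2 ± 6.92 and 18.5 ± 6.27 FPKM, and neither passed in either fit. Eif4a1, the main helicase gene and the most abundant of those numbered 4, had 664, 677 and 795 FPKM in DMSO and 816, 860 and 883 FPKM in CHIR99021. All treated libraries were above the controls by a small margin (adjusted p = 0.111, or 0.00940 with the block). Eif4a2 had 69.2, 98.4 and 63.1 FPKM and 92.6, 135 and 80.4 FPKM, again with a replicate 2 that was high in both groups (adjusted p = 0.236, or 0.00161 with the block). Eif4a3, a helicase of the exon junction complex, had 156 ± 5.38 and 154 ± 6.62 FPKM, and Eif4h, a relative of Eif4b, had 178 ± 21.1 and 181 ± 10.1 FPKM. Neither of them passed in either fit.

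Of the 4 members numbered 5, 1 rose and 0 fell, or 2 and 0 with the block. Eif5a (chromosome 11, 69916712 to 69921958) encodes the hypusine-carrying protein that helps ribosomes through stalls and was the most abundant member, at 1143, 1156 and 1312 FPKM in DMSO. It rose to 1442, 1639 and 1641 FPKM in CHIR99021, all above the controls, with a log2 change of 0.39 ± 0.11 (SE, adjusted p = 0.0432, or 0.0644 to 0.168 when 1 library was left out). The call was also lost with quantile normalization (log2 change 0.30, adjusted p = 0.166) and without a limit on level (adjusted p = 0.104). Eif5, which triggers GTP hydrolysis by eIF2, had 74.5, 99.0 and 101 FPKM and 95.2, 122 and 116 FPKM, with overlapping groups (adjusted p = 0.202, or 0.00757 with the block). Eif5b, the subunit joining factor, had 20.9 ± 2.93 and 23.7 ± 2.15 FPKM, and Eif5a2 had 4.10 ± 0.241 and 4.79 ± 0.344 FPKM. Neither passed in either fit, although both were higher in 3 of 3 replicate numbers. Eif6, which keeps free large subunits from joining and takes part in their assembly, had 89.2, 79.3 and 94.8 FPKM in DMSO and 96.9, 90.8 and 100.5 FPKM in CHIR99021. It was higher in 3 of 3 replicate numbers with overlapping groups (adjusted p = 0.352, or 0.0921 with the block).

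**Figure D3:**
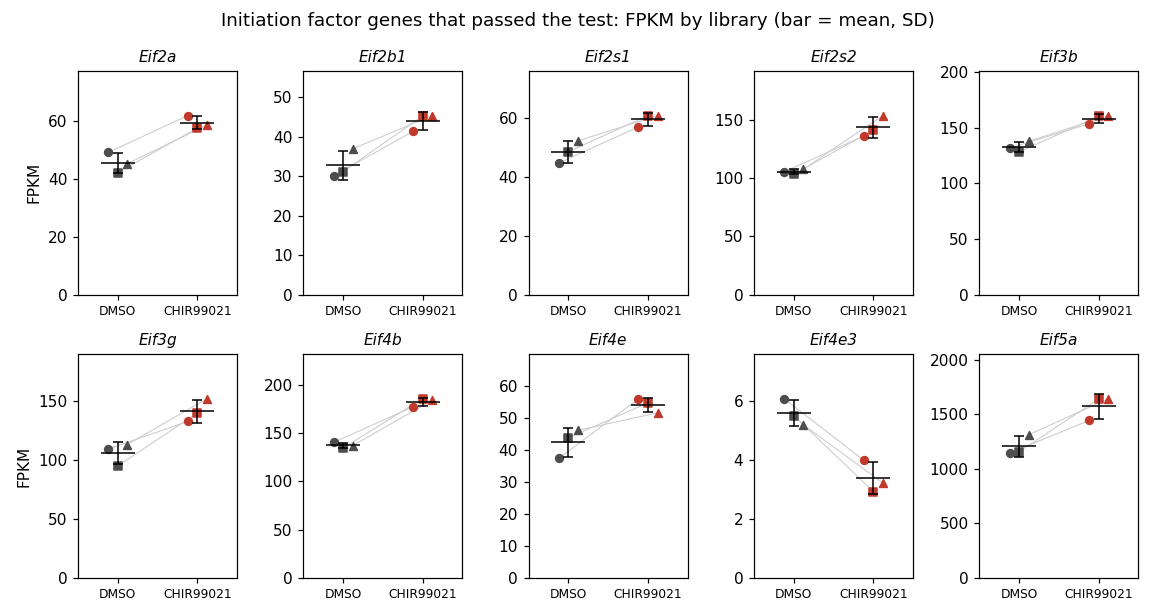
FPKM by library (axes start at 0) of the 10 members that passed the test, with DMSO in grey, CHIR99021 in red, circles, squares and triangles for replicates 1, 2 and 3, thin lines joining the same number, and black bars for the mean and SD (n = 3). Eif4e3 is the gene that fell, and in every panel the groups do not overlap.

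Levels were compared between paralogs within each library. The ratio of Eif4e3 to Eif4e was 0.163, 0.126 and 0.113 in DMSO and 0.0712, 0.0535 and 0.0624 in CHIR99021, lower in every treated library. The ratio of Eif4e2 to Eif4e was 1.64, 1.16 and 1.15 in DMSO and 1.01, 1.04 and 1.09 in CHIR99021. Both reached the smallest p that an exact two-sided permutation test of 3 libraries against 3 can give, 0.1 (adjusted p = 0.35 over the 7 ratios examined). Eif4g2 to Eif4g1 was 3.13 ± 1.13 and 2.202 ± 0.348, and Eif4g3 to Eif4g1 was 0.314 ± 0.0557 and 0.228 ± 0.0384, each lower in 3 of 3 replicate numbers (exact permutation p = 0.3 and 0.2, n = 3 per group). Eif4a2 stood at 0.110 ± 0.0333 of Eif4a1 in DMSO and 0.121 ± 0.0336 in CHIR99021, higher in 3 of 3 replicate numbers. Eif1b stood at 0.131 ± 0.00750 of Eif1 in DMSO and 0.147 ± 0.0227 in CHIR99021, higher in 2 of 3. Eif5a2 stood at 0.00341 ± 0.000259 of Eif5a in DMSO and 0.00306 ± 0.000361 in CHIR99021, lower in 3 of 3. The permutation test does not use the pairing by replicate number.

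Promoters were searched because 9 members rose. RefSeq windows on GRCm38.p6, 300 bases long from 250 before to 50 after an annotated start, were found for 39 of the 48 members, 3 of them by an older symbol, and these are 38 distinct genes. The E-box CACGTG, the letters bound by MYC and its relatives, was present in at least 1 window of 10 of the 38 genes (26.3%). Counted in the same way, it was present in 12.5% of 8140 matched tested genes and 8.09% of all 27025 genes with windows. The genes were Eif1b, Eif3a, Eif3f, Eif3k, Eif4a1, Eif4e, Eif4g1, Eif4h, Eif5a and Eif5a2. Only Eif4e and Eif5a are among the 9 that rose, and both have more than 1 window in the table. The ATF4 composite letters TGATGNAA were in 0 of the 38 genes (2.74% of tested genes, 4.51% of all genes with windows). The TCF/LEF core TTTGAT was in Eif3f and Eif5a (5.26%, against 8.23% of tested genes and 13.4% of all). The NRF1 motif was in Eif3k (2.63%, against 2.62% of tested genes and 1.07% of all). Both strands were searched, and no listed motif contains another. Windows are printed for the cap-binding gene Eif4e, the scaffold gene Eif4g1 and the most abundant member Eif5a, which hold E-boxes. They are also printed for Eif2s2 and Eif4b, which hold none. In the fit without the block, the call of these 2 genes did not depend on any 1 library. Where a gene had more than 1 window, the window with the most E-boxes was chosen for printing. The other Eif4e window held none, nor did the Eif5a window at the deposited gene start, chr11:69921909-69922208. Capitals mark CACGTG.
Eif4e, downstream of 2 starts, chr3:138527018-138527317, plus strand: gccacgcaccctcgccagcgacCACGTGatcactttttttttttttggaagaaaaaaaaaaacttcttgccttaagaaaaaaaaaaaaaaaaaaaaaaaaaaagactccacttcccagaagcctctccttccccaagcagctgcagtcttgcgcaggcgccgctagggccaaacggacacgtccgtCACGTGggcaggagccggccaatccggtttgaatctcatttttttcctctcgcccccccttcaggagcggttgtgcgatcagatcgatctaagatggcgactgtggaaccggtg
Eif4g1, chr16:20672477-20672776, plus strand: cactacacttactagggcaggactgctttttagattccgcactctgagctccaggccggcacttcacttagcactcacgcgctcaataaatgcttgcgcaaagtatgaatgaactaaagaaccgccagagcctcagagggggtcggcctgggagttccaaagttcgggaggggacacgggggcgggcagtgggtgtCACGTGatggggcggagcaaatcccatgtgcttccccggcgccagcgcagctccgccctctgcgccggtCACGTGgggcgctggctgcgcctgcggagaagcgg
Eif5a, among 6 starts, chr11:69921337-69921636, minus strand: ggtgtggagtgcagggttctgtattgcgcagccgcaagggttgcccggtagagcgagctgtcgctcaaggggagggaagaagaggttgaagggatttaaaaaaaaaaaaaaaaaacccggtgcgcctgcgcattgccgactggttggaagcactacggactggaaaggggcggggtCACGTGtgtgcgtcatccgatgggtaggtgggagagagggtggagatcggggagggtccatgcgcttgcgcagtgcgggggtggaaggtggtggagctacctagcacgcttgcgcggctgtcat
Eif2s2, chr2:154892857-154893156, minus strand: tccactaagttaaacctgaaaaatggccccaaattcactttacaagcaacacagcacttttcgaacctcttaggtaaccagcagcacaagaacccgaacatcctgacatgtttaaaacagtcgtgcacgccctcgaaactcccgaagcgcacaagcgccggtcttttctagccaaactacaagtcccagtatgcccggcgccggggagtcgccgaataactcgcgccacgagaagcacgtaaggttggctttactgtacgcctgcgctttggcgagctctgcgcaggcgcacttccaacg
Eif4b, chr15:102073523-102073822, plus strand: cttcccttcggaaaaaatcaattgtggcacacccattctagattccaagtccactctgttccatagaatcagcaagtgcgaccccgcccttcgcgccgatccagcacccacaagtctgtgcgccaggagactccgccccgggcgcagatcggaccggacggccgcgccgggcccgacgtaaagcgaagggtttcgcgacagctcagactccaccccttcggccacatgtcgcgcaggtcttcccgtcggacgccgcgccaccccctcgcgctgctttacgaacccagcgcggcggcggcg
The E-boxes began 228 and 64 bases before the start in Eif4e, 54 bases before it and at base 16 after it in Eif4g1, and 74 bases before it in Eif5a. Which start the cells used, and binding at these letters, was not measured.

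Genes for proteins that control or assist the initiation factors were examined as a list. Of 34 such genes, all tested, 7 rose (20.6%, against 8.13% of all tested genes) and 5 fell (14.7%, against 13.3%), or 12 (35.3%, against 18.4%) and 6 (17.6%, against 24.4%) with the block, and the median log2 change was 0.11. The share that fell was thus near that of all tested genes without the block. Pdcd4, whose product binds and inhibits eIF4A, fell from 6.76, 7.05 and 9.42 FPKM to 1.22, 1.34 and 0.866 FPKM (6.79-fold lower, log2 change -2.02 ± 0.17 SE, adjusted p = 0.000512). It was the largest change on this list, and the groups were far apart. The poly(A)-binding protein genes, whose products join the tail of the messenger RNA to eIF4G, both rose. Pabpc4 had 83.6, 88.8 and 82.0 FPKM in DMSO and 151, 175 and 163 FPKM in CHIR99021 (log2 change 0.93 ± 0.08 SE, adjusted p = 0.000583). Pabpc1 had 736, 636 and 660 FPKM and 1002, 993 and 1027 FPKM (log2 change 0.57 ± 0.09 SE, adjusted p = 0.00564).

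Of the kinases that phosphorylate eIF2 alpha, Eif2ak1, the heme-regulated kinase, fell from 32.8, 30.5 and 35.0 FPKM to 22.9, 24.1 and 21.5 FPKM (adjusted p = 0.00801). Eif2ak3, the endoplasmic reticulum kinase PERK, rose from 11.4, 14.9 and 15.0 FPKM to 19.0, 19.5 and 18.9 FPKM (adjusted p = 0.0318). Eif2ak2 and Eif2ak4 passed in neither fit. Ppp1r15a, which brings a phosphatase to eIF2 alpha, fell from 102 ± 16.1 to 68.0 ± 4.80 FPKM (adjusted p = 0.0190), and Dnajc3, a chaperone that inhibits eIF2 kinases, rose from 18.3 ± 1.60 to 23.3 ± 1.38 FPKM (0.0480).

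Around the cap, Eif4ebp1, an inhibitor of eIF4E, rose from 30.7, 31.7 and 42.6 FPKM to 49.2, 44.5 and 52.3 FPKM (adjusted p = 0.0426). Mknk2, a kinase of eIF4E, fell from 197 ± 13.8 to 147 ± 3.98 FPKM (0.0113), and Cyfip1, which can hold eIF4E in a repressor complex, fell from 14.0 ± 1.52 to 9.51 ± 0.768 FPKM (0.0177). The remaining genes that rose were Rps6kb1, the S6 kinase that acts on eIF4B (17.1 ± 1.02 to 22.4 ± 2.45 FPKM, 0.0467), and Abce1, a ribosome recycling factor (60.3 ± 6.72 to 81.6 ± 4.81 FPKM, 0.0216). Eif4ebp2, the other abundant eIF4E inhibitor, had 68.4 ± 8.01 and 70.7 ± 3.43 FPKM and passed in neither fit. Eif2s3x, the X-linked gamma subunit of eIF2, had 94.8, 100.3 and 73.6 FPKM and 137, 148 and 92.5 FPKM, with replicate 3 low in both groups (adjusted p = 0.121, or 0.00173 with the block). Replicate 3 also held the Y-linked copy Eif2s3y, at 26.5 FPKM in DMSO and 25.4 FPKM in CHIR99021, against at most 0.116 FPKM elsewhere. A link between the levels of these copies was not tested. Beyond Pdcd4, Pabpc4, Pabpc1 and Eif2ak1, these regulators were chosen for naming after their values were seen.

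**Figure D4:**
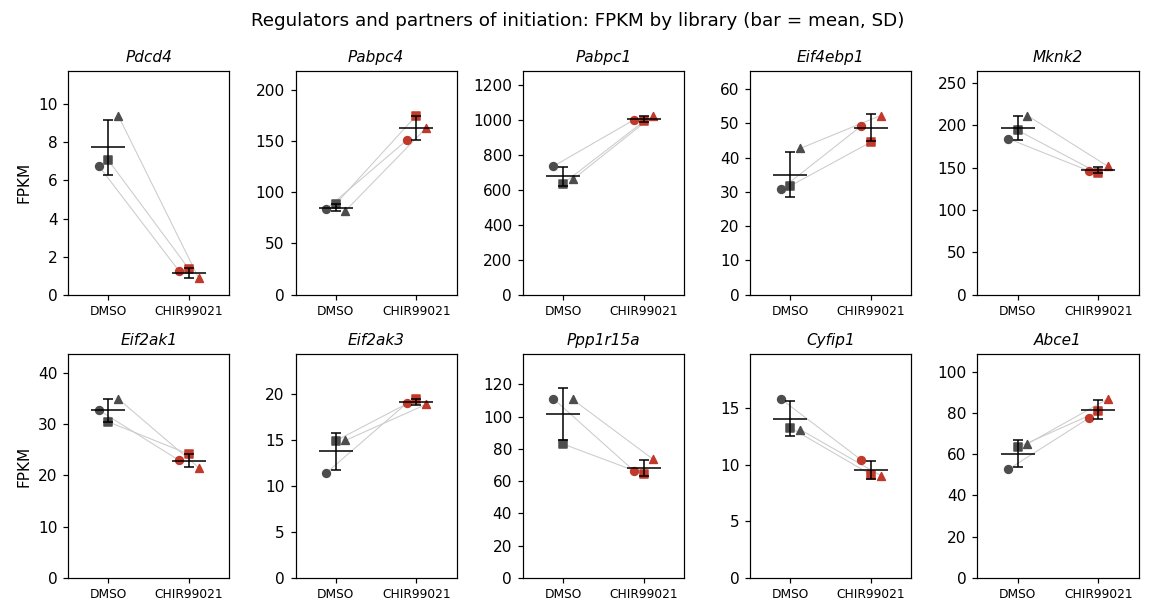
FPKM by library (axes start at 0) of 10 regulators and partners of initiation that passed the test, with DMSO in grey, CHIR99021 in red, circles, squares and triangles for replicates 1, 2 and 3, thin lines joining the same number, and black bars for the mean and SD (n = 3). Pdcd4 drops to near 1 FPKM, while Pabpc1 and Pabpc4 lie above every control.

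Genes for the next steps of translation were also examined. Of 16 tested genes for cytosolic elongation and termination, 7 rose (43.8%, against 8.13% of all tested genes) and 0 fell (against 13.3%), or 11 (68.8%, against 18.4%) and 0 (against 24.4%) with the block, and the median log2 change was 0.33. Eef1e1, a scaffold of the tRNA synthetase complex named for its likeness to elongation factors, rose from 22.2 ± 2.82 to 43.7 ± 1.29 FPKM (adjusted p = 0.00125). Eef1g, a subunit of the exchange factor of eEF1A, rose from 791 ± 63.2 to 1187 ± 100.006 FPKM (0.00943), and its partner Eef1d from 96.8 ± 6.37 to 125 ± 6.54 FPKM (0.0210). Dph5, an enzyme of the diphthamide modification of eEF2, rose from 7.34 ± 1.01 to 12.2 ± 2.57 FPKM (0.0268).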

How the data were processed

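Messenger RNA was sequenced in 6 libraries, 3 per group. The submitters' processing notes name mm10, TopHat2 2.1.1, Cufflinks 2.2.1 and cutadapt 1.12. For the annotation, strand setting and reads with several matches, no statement is given in the sources used here. Each library has a table that the authors deposited, with gene FPKM and confidence limits per the file headers. Depth is unknown from FPKM, and count models were not applied. Summed FPKM ran from 527290 to 617449 per library. The limits of the median member lay 5.77% to 7.61% from its value, depending on the library. The spans of 11 members overlap another entry. For 6 of them, Eif2a, Eif3j1, Eif3j2, Eif4a2, Eif5 and Eif5b, an overlapping entry had a mean FPKM of 1 or more. Starts were converted to count from 1.

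Tables were joined by entry and span. Entries whose mean reached 1 FPKM were tested on log2(FPKM + 1) with limma 3.58.1 in R 4.3.3 (lmFit, eBayes with a variance trend), two-sided, with Benjamini-Hochberg adjustment over 10096 genes at 0.05. The code was tested on simulated data. Ratios of paralogs had an exact permutation test (scipy 1.17.1). Tables and figures used Python 3.11.15, pandas 2.3.3 and matplotlib 3.10.9.

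Groups came from the titles, which also number the replicates. Deviations from the group means correlated at 0.490 to 0.535 for libraries with the same number and at -0.352 to -0.140 for others. The Y-linked Eif2s3y was at 26.5 and 25.4 FPKM in replicate 3 of DMSO and CHIR99021 and at most 0.116 FPKM elsewhere. The numbers were therefore taken to pair the libraries, and the fit with the replicate block stands beside the counts and calls it changes.

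The members and lists were chosen with earlier results of these data known. All members could be named, and of each other list up to 4 genes with the smallest adjusted p. The further regulators, and Mtif2 and Mtif3, were named after their values were seen. Other pseudocounts, filters, scalings, variance settings and left-out libraries were tried.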

Additional observations from a re-analysis of the deposited data

How the results depend on the processing

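Of the settings tried, the number of members called moved most with the replicate block, at 24 higher and 2 lower (4321 genes over the whole table), against 9 and 1 (2164 genes) without it. Leaving out both libraries of replicate 1, 2 or 3 in the blocked fit, a setting added after the data were seen, gave 19, 22 and 19 higher and 1, 2 and 1 lower, with 3333, 3665 and 2790 genes in all and medians of 0.22, 0.21 and 0.18. Scaling raised the members called higher to 15 (upper quartile) and 16 (quantile), with medians of 0.24 in both. Among all tested genes, those called higher went from 821 to 1115 and 1232 in the same order. The share of all calls that were higher went from 37.9% to 48.7% and 51.2%. The median log2 change of all tested genes moved from -0.04 to 0.014 and 0.029, so the upward shift was not confined to the members. The fall of Eif4e3 was not called without a limit on level, and with a limit of 5 FPKM it was not tested, which left 0 members lower in both settings. The median was 0.21 with a pseudocount of 0.1, 0.24 with a limit of 5 FPKM and 0.24 without the Eif2c entries. With Eif3j1 and Eif3j2 summed, 11 members were higher and 1 lower, or 24 and 2 under the replicate block, of 4324 genes.

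When 1 library was left out, 2 to 6 members were called higher and 0 to 1 lower, the median was 0.15 to 0.21 and 1069 to 2038 genes were called, with fewer samples in each fit. The low counts over all genes were 1334 without DMSO replicate 3, 1441 without CHIR99021 replicate 2 and 1069 without CHIR99021 replicate 3.

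Of the 10 called members, 5 lost their call in a setting other than a single library left out. Without a limit on level the adjusted p was 0.0584 for Eif2s1, 0.0614 for Eif4e, 0.0550 for Eif4e3 and 0.104 for Eif5a. Without the variance trend, which left 6 members higher, it was 0.0841 for Eif2s1, 0.0892 for Eif3b and 0.0696 for Eif4e. It was 0.166 for Eif5a with quantile scaling and 0.0713 for Eif4e in the blocked fit without replicate 1. Each of the 10 kept its sign in every setting in which it was tested. Changes near 0 did not: with upper-quartile and quantile scaling the log2 change was 0.025 and 0.0034 for Eif1b, 0.021 and 0.034 for Eif2c3, 0.053 and 0.079 for Eif3j2, 0.042 and 0.015 for Eif3k, 0.043 and 0.053 for Eif4a3, 0.017 and 0.022 for Eif4g2 and 0.015 and 0.018 for Eif4g3, and with quantile scaling 0.019 for Eif2c1. With 1 library left out it ran from -0.11 to 0.079 for Eif1b, -0.23 to 0.069 for Eif2c1, -0.065 to 0.061 for Eif2c3, -0.011 to 0.069 for Eif3c, -0.14 to 0.17 for Eif3f, -0.015 to 0.21 for Eif3h, -0.21 to 0.17 for Eif3j2, -0.14 to 0.064 for Eif3k, -0.043 to 0.019 for Eif4a3, -0.017 to 0.12 for Eif4e2, -0.21 to 0.017 for Eif4enif1, -0.28 to 0.23 for Eif4g3 and -0.025 to 0.12 for Eif4h. None of these genes was called in these settings, and the cause was not tested. Depth is unknown, so counting error could not be separated from the spread between libraries.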

Other observations

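Mitochondria translate with factors of their own. Of 10 such genes, all tested, 2 rose (20.0%, against 8.13% of all tested genes) and 0 fell (against 13.3%), or 5 (against 18.4%) and 0 (against 24.4%) with the replicate block, and the median log2 change was 0.24. Tsfm, the exchange factor of mitochondrial elongation, rose from 14.7, 16.5 and 21.3 FPKM in DMSO to 23.9, 27.1 and 30.3 FPKM in CHIR99021 (limma, adjusted p = 0.0244). Gfm1, a mitochondrial elongation factor, rose from 17.9, 24.1 and 24.1 FPKM to 27.9, 35.1 and 30.1 FPKM (adjusted p = 0.0465). The treated libraries lay above every control for both genes. The mitochondrial initiation factor genes Mtif2 and Mtif3 had 13.6 ± 0.711 and 12.2 ± 0.835 FPKM, and 4.82 ± 0.275 and 5.18 ± 0.202 FPKM, and passed in neither fit.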
